A study of Zea mays with 6 samples.

Results

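The shortest abundant genes, 100 in number, were described in seedlings of the maize F1 hybrid B73×Mo17. Members were chosen by their mRNA FPKM, at least 50 in both mRNA libraries, among Zm00001d entries (the gene models of the B73 reference), and then by their span (end minus start plus 1), keeping the 100 with the smallest. Of 45578 entries, 43789 carried a Zm00001d identifier, 1007 of these reached the FPKM limit, and the 907 that were not members served as longer genes of like abundance. The members spanned 71 to 408 bp and the longer genes 414 to 24399 bp, with a median of 2030 bp. The rule used the span and the mRNA FPKM, so both are given as a description with no test.

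The 6 libraries came from the aerial tissue of hybrid seedlings collected 14 d after sowing, with 2 biological replicates each of polysome RNA, m6A-seq, and input RNA (called mRNA here). Every library was of the same hybrid, age, and tissue, without any treatment, and those of the inbred parents were not analysed here. No symbol or description could be paired with the identifiers, since 0 of 43789 matched the RefSeq gene table, so leaf markers could not be checked and no function is given for any member. Whether a member encodes a protein was likewise not annotated in the sources used here.

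FPKM counts the fragments of a gene relative to its length and to the total of the library, so it is a relative level. In polysome profiling, RNA bound by several ribosomes is separated from free RNA on a gradient, and the ratio of polysome to mRNA level is used as translational efficiency, a measure of how much of a transcript is being translated. N6-methyladenosine (m6A) is the commonest internal modification of plant mRNA, placed mainly near the stop codon and in the 3′ untranslated region, and is mapped by sequencing RNA fragments pulled down with an antibody. Short and abundant plant genes are known to include many that encode ribosomal proteins, photosystem subunits, and other small proteins, while transfer RNAs and small nucleolar RNAs are also short, and are not translated.

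The members fell into 2 groups by span. In total 41 spanned 71 to 88 bp, 59 spanned 135 to 408 bp, and none lay between. This division was chosen after the spans and ratios had been seen. The shorter group held few distinct spans, with 20 entries of 74 bp, 7 of 73 bp, 4 of 81 bp, 4 of 87 bp, 3 of 72 bp, 2 of 71 bp, and 1 of 88 bp. At most 29 codons fit in 88 bp. The span was a multiple of 3 in 11 of these 41 (26.8%), in 57 of the 59 longer members (96.6%), and in 45.2% of the longer genes. It was so in 134 of 181 longer genes of at most 1000 bp. Among Zm00001d entries of 135 to 408 bp, the share was 92.96% at 10 to 50 mRNA FPKM. It was 89.4% at 1 to 10 and 67.6% under 1 FPKM. A high share was therefore not particular to the members of this size. Members were found on all 10 chromosomes, with 22 on chromosome 5 and 17 each on chromosomes 1 and 2.

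The 2 groups of members differed widely in polysome level. Members of 71 to 88 bp had a median of 4.99 and 3.57 FPKM in the polysome libraries, against 169 and 200.1 FPKM in the mRNA libraries. Members of 135 to 408 bp had a median of 264 and 230 FPKM in the polysome libraries, against 99.3 and 112 FPKM in the mRNA libraries. The longer genes had a median of 175 and 176 FPKM in the polysome libraries, against 93.9 and 94.3 FPKM in the mRNA libraries. The shorter group was thus low in polysome RNA at an mRNA level above that of the longer genes, and the rule did not use polysome FPKM. Of the summed FPKM of all Zm00001d entries, members of 71 to 88 bp took 0.0904% and 0.0836% in the polysome libraries, against 2.91% and 3.68% in the mRNA libraries. Members of 135 to 408 bp took 7.85% and 6.84% in the polysome libraries, against 3.72% and 3.77% in the mRNA libraries.

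**Figure D1:**
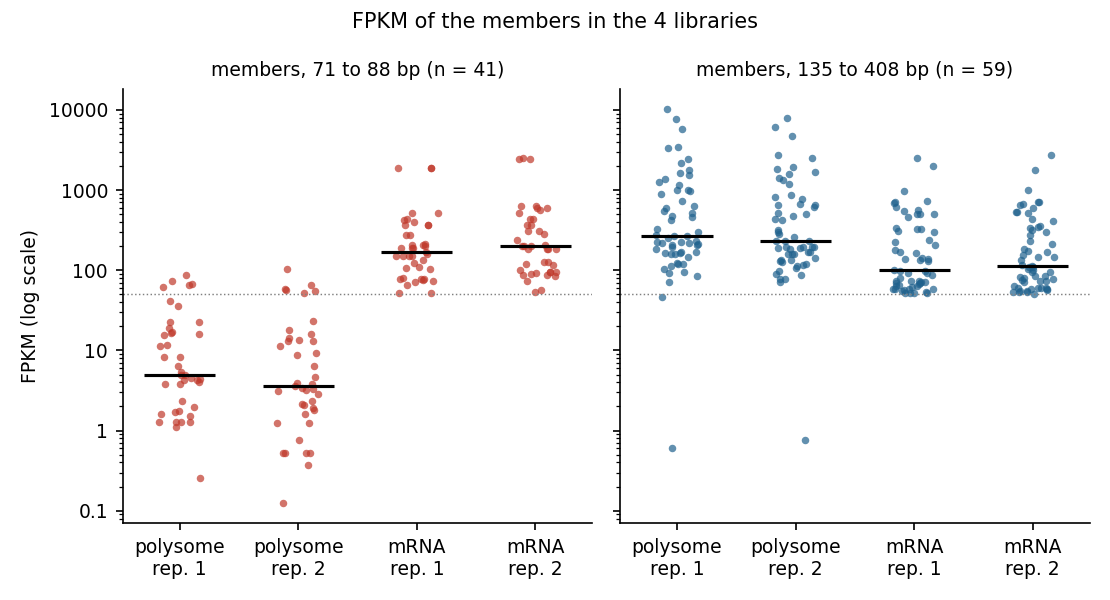
FPKM (log scale) of each member in polysome replicates 1 and 2 and mRNA replicates 1 and 2, for the 41 members of 71 to 88 bp (left) and the 59 of 135 to 408 bp (right). Points are genes, bars are medians over genes, and the dotted line is the limit of 50 FPKM that chose the members on mRNA. Medians on the left are 4.99 and 3.57 in polysome RNA and 169 and 200.1 in mRNA.

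The polysome to mRNA ratio was taken as mean polysome FPKM over mean mRNA FPKM. Its denominator is the quantity that chose the members. Over all 100 members the median ratio was 1.38, with quartiles of 0.0273 and 2.83, and over the longer genes it was 1.53, with quartiles of 0.801 and 2.93. The near medians covered very different spreads, with an interquartile range of the log2 ratio of 6.71 among members and 1.87 among longer genes. Members of 71 to 88 bp had a median ratio of 0.0191 and ranged from 0.00304 to 0.667, so that none reached 1. Members of 135 to 408 bp had a median of 2.61 and quartiles of 1.80 and 3.38. Their interquartile range of the log2 ratio was 0.91, narrower than that of the longer genes, but nearer to the 1.24 of longer genes of at most 1000 bp. A ratio below 0.25 was found in 39 of the 41, in 1 of the 59, and in 15 of the 907 longer genes (1.65%). A ratio above 2 was found in 0 of the 41, in 41 of the 59 (69.5%), and in 41.5% of the longer genes. In longer genes of at most 1000 bp the share was 65.2%.

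**Figure D2:**
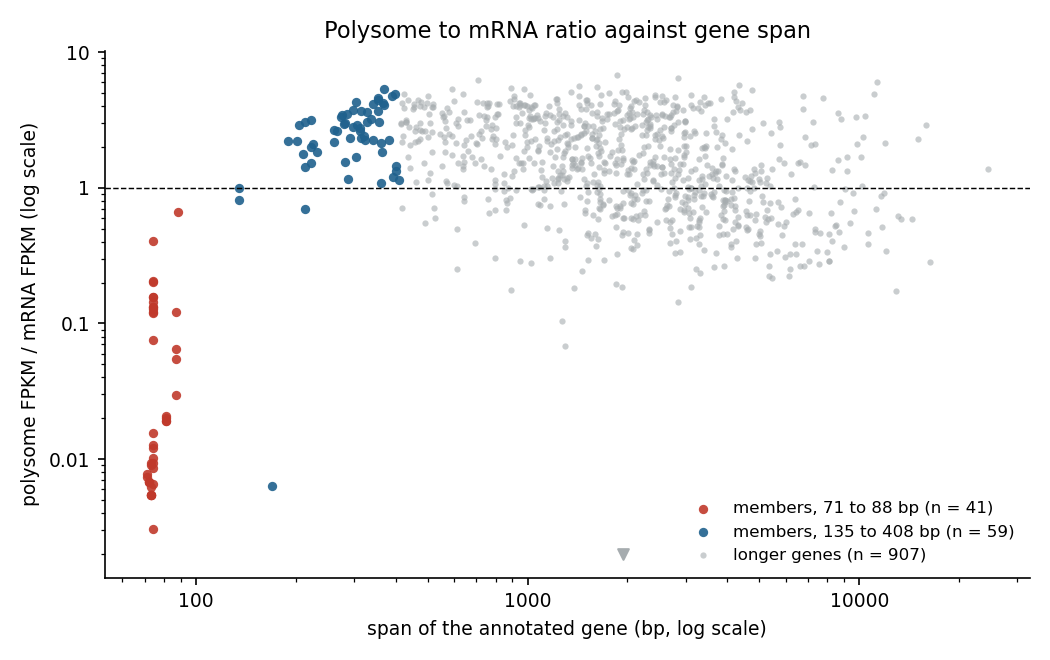
Polysome to mRNA ratio (log scale) against span in bp (log scale) for the 1007 abundant genes. Points are genes, the dashed line marks a ratio of 1, and the triangle is 1 longer gene with a ratio at or below 0.002. All 41 members of 71 to 88 bp sit below 1, and 55 of the 59 members of 135 to 408 bp sit above it.

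Among the longer genes the ratio also differed by span. In 4 groups of rising span the median was 2.42 (414 to 1144 bp), 1.71 (1146 to 2030 bp), 1.39 (2040 to 3411 bp), and 0.900 (3412 to 24399 bp). The median of 2.61 for members of 135 to 408 bp was therefore close to that of the longer genes nearest to them in span. Within bands of mean mRNA FPKM, members of 135 to 408 bp had a median ratio of 2.30 against 1.39 for longer genes at 50 to 100 FPKM, 2.23 against 1.91 at 100 to 200 FPKM, 3.24 against 1.64 at 200 to 500 FPKM, and 3.48 against 1.77 above 500 FPKM. Longer genes of at most 1000 bp had medians of 2.34, 2.40, 3.33, and 3.02 in these bands, so beside the longer genes nearest in span the members of 135 to 408 bp were higher only above 500 FPKM. In the same bands, members of 71 to 88 bp had medians of 0.0758 (n = 11), 0.0142 (n = 12), 0.0103 (n = 11), and 0.00683 (n = 7). Some of these entries had near-identical values, and the bands were set by mRNA FPKM, the denominator of the ratio, so no trend with abundance is read from them. All these medians are descriptions over genes, which are not replicates, and no test was made between the lists.

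Polysome and mRNA were compared for each entry with limma on log2(FPKM + 0.1), with Benjamini-Hochberg adjustment over the 19518 entries with a mean FPKM of at least 1, an adjusted P under 0.01 and a fold change of at least 1.5. Of the members, 47 were higher in polysome RNA and 41 were lower, where 21.1% and 22.2% of all entries tested were called higher and lower. All 47 higher calls were in members of 135 to 408 bp, and 40 of the 41 lower calls were in members of 71 to 88 bp. The median log2 fold change was 1.38 for members of 135 to 408 bp, -5.69 for those of 71 to 88 bp, 0.61 for the longer genes, and -0.14 over all entries tested. Longer genes were called higher in 450 cases (49.6%) and lower in 159 (17.5%), and those of 414 to 1144 bp higher in 161 of 227 (70.9%) and lower in 11. Both polysome values lay above both mRNA values in 52 members (37.6% of all entries), below in 44 (45.5% of all entries), and the libraries overlapped in 4. All 100 members passed the limit on mean FPKM through their mRNA. Members chosen for a high mRNA FPKM are more readily called lower in polysome RNA, and these counts describe them without supporting a difference from other genes.

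Zm00001d entries of these spans that were not members were counted in the same way. An entry absent from or low in polysome RNA could be tested only through its mRNA. Entries of at most 88 bp had a median polysome FPKM of 0.286 at 1 to 10 mRNA FPKM and 0.547 at 10 to 50. The counts are thus in part set by the limit on mean FPKM, and are a description without support for a difference. Of 135 tested entries of at most 88 bp that were not members, 104 (77.0%) were called lower and 6 (4.44%) higher in polysome RNA. Of 505 tested entries of 135 to 408 bp that were not members, 30 (5.94%) were called lower and 204 (40.4%) higher. Over all entries tested, 22.2% were called lower and 21.1% higher. Entries of at most 88 bp had a median ratio of 0.0703 at 1 to 10 mRNA FPKM (n = 119) and 0.0270 at 10 to 50 FPKM (n = 40), beside 0.0191 in the members. These bands were again set by the denominator of the ratio. Most entries of this size were not abundant, since 2041 of 2242 had a mean mRNA FPKM under 1.

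The ratio scaling depends on what else is in each library. Entries with ENSRNA identifiers, which are listed beside the Zm00001d models in the same files, held 24.6% and 25.9% of the summed FPKM of the polysome libraries, against 59.6% and 58.9% of the mRNA libraries. When they were left out and the libraries rescaled, the median ratio was 1.64 for members of 135 to 408 bp, 0.0120 for those of 71 to 88 bp, and 0.963 for the longer genes. The order of the 3 medians was as before. The log2 fold changes of members moved by a median of -0.67, which left 31 higher calls and gave 45 lower calls, 41 in members of 71 to 88 bp and 4 in those of 135 to 408 bp. The fold change turned negative in 10 members of 135 to 408 bp, of which Zm00001d018801 had been called higher.

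Members of 135 to 408 bp with the highest mRNA level were also among the most abundant in polysome RNA. Zm00001d012088 (285 bp, chr8:168007697-168007981) had 10336 and 7899 FPKM in polysome RNA, against 2529 and 2714 FPKM in mRNA. Zm00001d016991 (315 bp, chr5:182159462-182159776) had 7724 and 6139 FPKM in polysome RNA, against 1967 and 1784 FPKM in mRNA. In both genes each polysome library was above each mRNA library, and limma gave log2 fold changes of 1.79 ± 0.15 and 1.88 ± 0.14 (SE, n = 2 each; Benjamini-Hochberg adjusted P of 0.0003 and 0.00021).

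The 5 highest fold changes among the members were all of spans from 354 to 399 bp. Zm00001d022464 (369 bp, chr7:178202555-178202923) had 5804 and 4779 FPKM in polysome RNA, against 976 and 1009 FPKM in mRNA, a log2 fold change of 2.41 ± 0.12 (limma, Benjamini-Hochberg adjusted P of 0.00012). Zm00001d012353 (399 bp) had 1611 and 1415 FPKM in polysome RNA, against 312 and 297 FPKM in mRNA, a log2 fold change of 2.31. Zm00001d000838 (389 bp) had 542 and 615 FPKM in polysome RNA, against 132 and 110 FPKM in mRNA, a log2 fold change of 2.26. The other two, Zm00001d013191 and Zm00001d034179, both of 354 bp, had log2 fold changes of 2.20 and 2.14. In all 5 the polysome and mRNA libraries did not overlap.

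Of the 59 members of 135 to 408 bp, 12 were not called higher. Zm00001d014365 (169 bp, chr5:43034752-43034920) had 0.599 and 0.761 FPKM in polysome RNA, against 99.3 and 115 FPKM in mRNA. Its log2 fold change of -7.11 ± 0.17 was the only lower call of the group (limma, adjusted P of 3e-05). Its span is not a multiple of 3, but neither is that of Zm00001d000838 (389 bp), which had a log2 fold change of 2.26. Zm00001d053845 (213 bp) had 475 and 471 FPKM in polysome RNA, against 682 and 669 FPKM in mRNA, with a log2 fold change of -0.51 that was under the fold limit. The 2 members of 135 bp, Zm00001d006650 and Zm00001d021882, had ratios of 0.809 and 0.999, so the shortest 2 of this group had similar levels in both kinds of library. Zm00001d002721 (402 bp) had 46.5 and 99.0 FPKM in polysome RNA, against 51.8 and 58.1 FPKM in mRNA, and the libraries overlapped. The members nearest to the limits of the rule were of this group. The 2 just inside the span limit were Zm00001d026160 (402 bp, ratio 1.46) and Zm00001d035440 (408 bp, ratio 1.14), and the 2 just outside were Zm00001d012469 and Zm00001d021422 (414 bp, ratios 2.94 and 3.0). The members of lowest mRNA level were Zm00001d017852 (54.2 and 50.6 FPKM) and Zm00001d012439 (51.4 and 53.8 FPKM), with ratios of 2.22 and 2.78.

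Among members of 71 to 88 bp, the ratio was close within some spans and varied widely within others. The 4 entries of 81 bp had ratios of 0.0191 to 0.0207, the 3 of 72 bp of 0.00672 to 0.00683, and the 7 of 73 bp of 0.00544 to 0.00932. The 4 entries of 87 bp had ratios of 0.0295 to 0.121. The 20 entries of 74 bp were spread most widely, with 8 from 0.00304 to 0.0157, 10 from 0.120 to 0.205, and the other two at 0.0758 and 0.406. Zm00001d031452 (74 bp, chr1:190459577-190459650) had the lowest ratio of all members. It had 0.254 and 0.123 FPKM in polysome RNA, against 51.4 and 72.7 FPKM in mRNA, a log2 fold change of -7.77 ± 0.29 (limma, adjusted P of 5.6e-05). The highest ratio of the group, 0.667, was that of Zm00001d018168 (88 bp, chr5:215847604-215847691), with 88.2 and 102 FPKM in polysome RNA, against 158 and 127 FPKM in mRNA. Its libraries did not overlap, but its log2 fold change of -0.578 ± 0.15 was not called (limma, adjusted P of 0.018). It missed the limit on adjusted P and, narrowly, the fold limit (0.585 in log2).

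Many of the shortest members had near-identical values, and reads of copies with the same sequence could have been shared between them by the counting, so their levels are uncertain. Entries of the same span with mRNA FPKM within 10% of each other in both libraries were taken as a family, a rule chosen after the values had been seen. In this way 27 of the 41 members of 71 to 88 bp (65.9%) fell into 10 families, against 4 of the 59 (6.78%) in 2 families and 22 of the longer genes (2.43%) in 11 families. The most abundant were Zm00001d004752, Zm00001d017105, and Zm00001d044070 (72 bp, on chromosomes 2, 5, and 3). They had 15.8 to 16.7 and 13.1 to 13.3 FPKM in polysome RNA, against 1871 to 1898 and 2446 to 2499 FPKM in mRNA. In Zm00001d013930, Zm00001d019295, Zm00001d021381, and Zm00001d046858, all of 73 bp, polysome FPKM was the same in every entry at 1.28 and 0.533, against 149 to 149.8 and 182 to 183 FPKM in mRNA. The pair Zm00001d018169 and Zm00001d051497 (71 bp) had 3.86 and 4.06 FPKM in polysome replicate 1, against 361 and 364 FPKM in mRNA replicate 1. With each family counted once, 24 entries of this size were left, of which 23 were lower in polysome RNA, with a median ratio of 0.0251.

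Replicates were less alike in the shortest members. The ratio of a replicate was taken from same-numbered polysome and mRNA libraries, and whether the numbers pair them is not known. The absolute difference of the log2 ratio between replicate 1 and replicate 2 had a median of 0.70 in members of 71 to 88 bp, 0.30 in members of 135 to 408 bp, and 0.19 in the longer genes. The median ratio was 0.0223 in replicate 1 and 0.0158 in replicate 2 for members of 71 to 88 bp, and 2.76 and 2.42 for those of 135 to 408 bp. The difference of the shortest members came from both kinds of library. Polysome FPKM was higher in replicate 2 in 3 of the 41, and mRNA FPKM in 35 of the 41, against 484 and 432 of the 907 longer genes. The same counts were 11 and 38 of the 59 members of 135 to 408 bp, and 48 and 84 of 181 longer genes of at most 1000 bp. Lower polysome FPKM in replicate 2 was thus seen in most of these short genes too. Entries of a family have like values, so the counts of the 41 are not independent. The least alike member was Zm00001d018170 (74 bp, chr5:215848997-215849070), with 1.77 and 0.377 FPKM in polysome RNA, against 105 and 126 FPKM in mRNA. Zm00001d028301 had 5.39 and 2.08 FPKM in polysome RNA, against 513 and 625 FPKM in mRNA, and Zm00001d033202 had 8.18 and 3.92 FPKM in polysome RNA, against 64.7 and 95.0 FPKM in mRNA. All 3 were called lower by limma despite this, since the ratio was below 0.13 in each replicate.

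**Figure D3:**
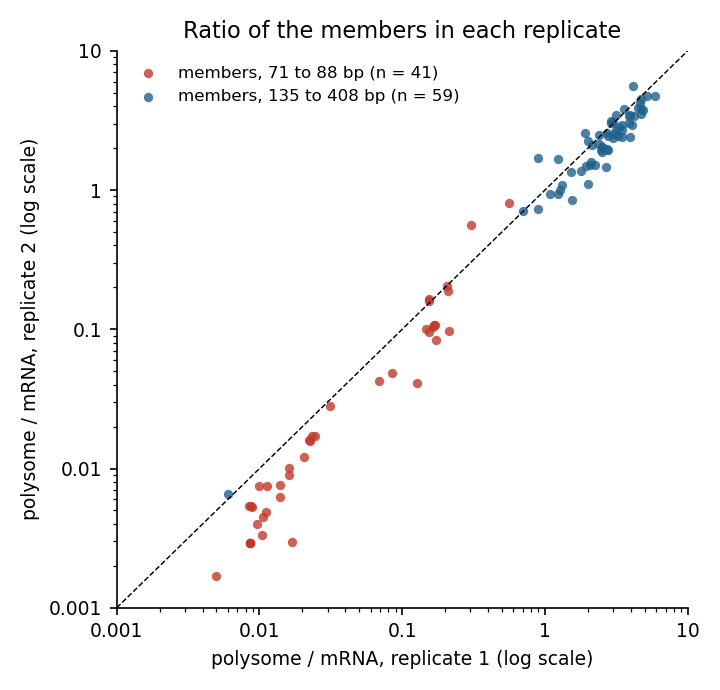
Polysome to mRNA ratio of each member in replicate 1 (x axis) and replicate 2 (y axis), both on log scales, with the dashed line at equality. Points are the 41 members of 71 to 88 bp and the 59 of 135 to 408 bp, and most of those of 71 to 88 bp lie below the line, with a median of 0.0223 in replicate 1 and 0.0158 in replicate 2.

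No member carried an m6A peak. A high-confidence peak was a replicate 1 peak sharing 1 bp or more with a replicate 2 peak (17022 of the 17371 replicate 1 peaks, with 30378 peaks in replicate 2). No such peak, nor any peak of a single replicate, touched the body of any of the 100 members, against 310 of the 907 longer genes (34.2%) and 52.4% of the 19397 Zm00001d entries whose mRNA FPKM averaged 1 or more. The share rose with span among the longer genes, with 3 of 227, 47 of 227, 112 of 226, and 148 of 227 in the 4 groups of rising span. It also fell with abundance, from 47.2% of the longer genes at 50 to 100 mRNA FPKM to 29.2% at 100 to 200. It was 13.8% at 200 to 500 and 2.33% above 500 FPKM. The longer genes of smallest span had a median of 127 mRNA FPKM, against 81.2 in those of largest span. The shares by span therefore mix span with mRNA level. Of longer genes of at most 1000 bp, 2 of 181 had a peak, and 2 of the 66 at 50 to 100 FPKM. The bodies of the members summed to 20.6 kb, where 0 peaks allows up to 0.146 peaks per kb (3 peaks), and the longer genes had 0.132 peaks per kb. A lower density of peaks in the members was therefore not detectable at this total length, and the limit covers counting error only. Spans ran from start to end with any introns counted, so densities of long and short genes are not like for like. Longer genes of at most 1000 bp had 0.0161 peaks per kb.

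Near the members, peaks were also few. With the body extended by 500 bp at both ends, 1 member had a high-confidence peak, against 352 of the 907 longer genes, 310 of which had it on the body, and 55.4% of the Zm00001d entries whose mRNA FPKM averaged 1 or more. Of longer genes of at most 1000 bp, 18 of 181 (9.94%) had a peak in the extended body. Within 500 bp downstream alone, 0 members and 74 of the longer genes (8.16%) had a peak. The member was Zm00001d011079 (222 bp, chromosome 8), whose peak had a summit 488 bp upstream, with a fold enrichment of immunoprecipitated over input signal of 4.0 in replicate 1 and 5.04 in replicate 2. A peak of replicate 2 alone lay 157 bp downstream of Zm00001d010650 (342 bp), with a fold enrichment of 2.09. The deposited spans were taken as given, and no annotation of untranslated regions was used.

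**Figure D4:**
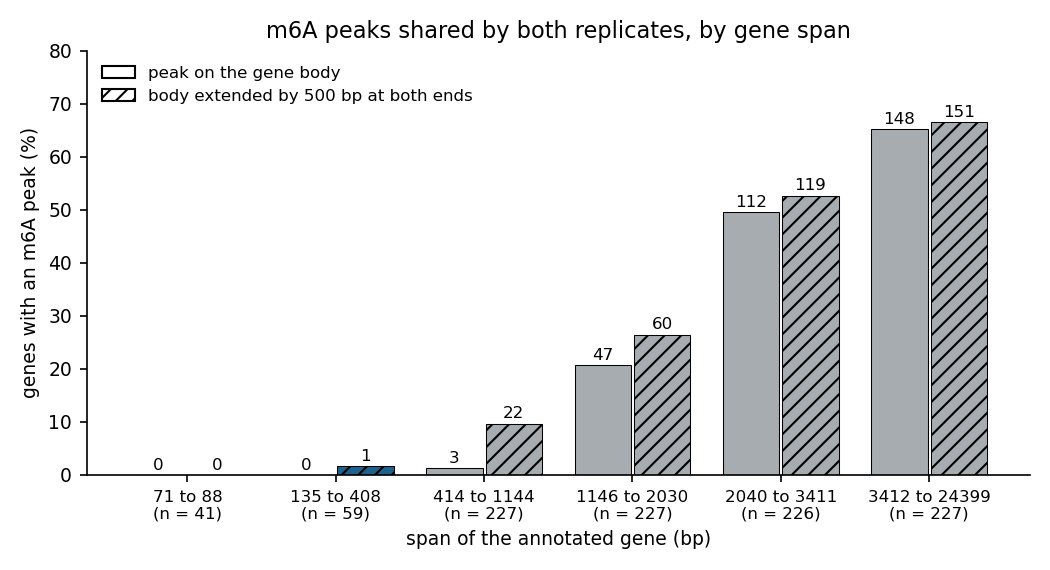
Percentage of genes with an m6A peak found in both replicates, by span, for the 2 groups of members (71 to 88 bp and 135 to 408 bp) and the 4 span groups of longer genes. Plain bars are peaks on the gene body, hatched bars peaks on the body extended by 500 bp at both ends, and the number over a bar is the count of genes. In the plain bars the share is 0 in both groups of members and highest in the longest genes (148 of 227), and in the hatched bars it is 0 of 41, 1 of 59, and 151 of 227 in the longest genes.

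The nearest other Zm00001d entry lay at a median distance of 1596 bp from members of 71 to 88 bp, 4057 bp from members of 135 to 408 bp, and 3194 bp from longer genes. It was within 1 kb in 17 of the 41 (41.5%), 12 of the 59 (20.3%), and 269 of the longer genes (29.7%). The mean mRNA FPKM of that neighbour was under 1 in 19 of the 41 (46.3%), 32 of the 59 (54.2%), and 421 of the longer genes (46.4%). For the shortest members it was often another very short entry. The nearest entry itself spanned at most 88 bp in 20 of the 41 (48.8%), in 4 of the 59 (6.78%), and in 38 of the longer genes (4.19%). An entry of at most 88 bp lay within 10 kb of 23 of the 41 (56.1%), 3 of the 59, and 52 of the longer genes (5.73%).

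**Figure D5:**
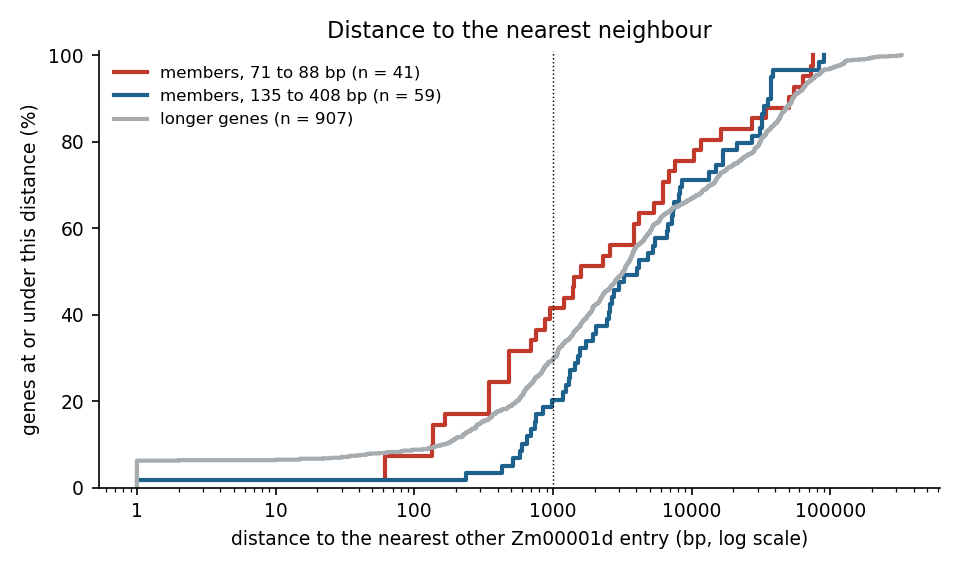
Cumulative percentage of genes by the distance to the nearest other Zm00001d entry in bp (log scale, overlapping entries drawn at 1 bp), for members of 71 to 88 bp, members of 135 to 408 bp, and longer genes. The dotted line is at 1000 bp, where 41.5%, 20.3%, and 29.7% of the genes have been reached.

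Some arrangements of very short entries recurred at different places. In Zm00001d008897 and Zm00001d009976 on chromosome 8 and Zm00001d018173 on chromosome 5, a 73 bp member lay 62 bp from an 84 bp entry on the same strand. In Zm00001d008895, Zm00001d018175, and Zm00001d030245, a 74 bp member lay 347 or 348 bp from an 84 bp entry on the same strand. These arrangements partly shared places. The same 84 bp entry, Zm00001d008896, neighboured Zm00001d008897 and Zm00001d008895, and Zm00001d018174 neighboured Zm00001d018173 and Zm00001d018175. The 84 bp entries had at most 1.12 FPKM in polysome RNA, against 0 to 20.2 FPKM in mRNA. A 71 bp and a 74 bp entry on opposite strands were 483 bp apart both on chromosome 5 (Zm00001d018169 and Zm00001d018170) and on chromosome 1 (Zm00001d028300 and Zm00001d028301). At the first place the members had 396 and 115 mean FPKM in mRNA, while at the second Zm00001d028300, which was no member, had 11.4 and Zm00001d028301 had 569. The levels of this pair thus differed between the places, and those of the other arrangements were close at some places only. Zm00001d009976 and Zm00001d018173 had 256 and 260.3 mean FPKM in mRNA, and their 84 bp neighbours 20.2 and 19.7. Zm00001d018175 and Zm00001d030245 had 319 and 324. Both of these close pairs of members were families, so their like mRNA levels follow from the family rule. In contrast, Zm00001d008897 had 100.3 mean FPKM in mRNA and Zm00001d008895 had 204, with an 84 bp neighbour at 0. The 84 bp neighbour of Zm00001d030245 had 0.145, against 19.7 for that of Zm00001d018175.

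The place with the most members was on chromosome 5, where chr5:215771943-215853041 held 12 Zm00001d entries in 81.1 kb, all of at most 88 bp, and 6 of them members. These were Zm00001d018164, Zm00001d018168, Zm00001d018169, Zm00001d018170, Zm00001d018173, and Zm00001d018175. Their ratios were 0.406, 0.667, 0.00732, 0.00934, 0.00900, and 0.0121, which includes the 2 highest ratios of all members of 71 to 88 bp. Zm00001d018168, with the highest, was 753 bp from Zm00001d018169, while the entry nearest to Zm00001d018164 was Zm00001d018165 at 137 bp, with a ratio of 0.311. Members next to each other in gene order were also found on chromosome 2, where Zm00001d003910 (74 bp) and Zm00001d000838 (389 bp) were 694 bp apart on opposite strands. Zm00001d003910 had 66.6 and 58.8 FPKM in polysome RNA, against 404 and 570.2 FPKM in mRNA, a log2 fold change of -2.94, whereas that of Zm00001d000838 was 2.26. Zm00001d004263 and Zm00001d004264, both of 74 bp on chromosome 2, were 3820 bp apart and had ratios of 0.144 and 0.122.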

How the data were processed

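The authors isolated polyadenylated RNA for the input and m6A-seq libraries, whereas no such step is named for the polysome RNA, and the part of this difference in the ratios was not tested. The authors trimmed reads with Trimmomatic 0.35, mapped them with HISAT2 2.1.0 to the B73 version 4 genome, and deposited one FPKM per annotated entry from StringTie. The values hold no counts, so the depth is unknown and precision rests on 2 replicates. Since FPKM divides by length, a given number of fragments weighs most in the shortest entries. The authors called m6A peaks with MACS2 in each replicate with input as control. The deposited peak files give a score, the fold enrichment (a ratio of immunoprecipitated over input signal), and −log10 P and −log10 q values, of which q limits peaks to 0.01. All coordinates are those of the deposited files.

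Kind and replicate came from the labels. The replicate libraries held different values in 30845 (mRNA) and 30298 (polysome) entries. Log2 was taken after adding 0.1 to each FPKM, which understates the fold changes of low values. limma 3.58.1 in R 4.3.3 (lmFit, eBayes with trend) was fitted to the 2 polysome and 2 mRNA libraries without a covariate, and tested on simulated data. Xtail, which the study names for translation, needs counts and was not used. Python 3.11.15 with pandas 2.3.3, numpy 2.4.6, and matplotlib 3.10.9 was used for the rest. Named genes were the 10 of smallest span, the 5 of highest mRNA FPKM, the 5 of highest and 5 of lowest fold change called, the 3 with least alike replicates, members next to each other, and those nearest to the limits of the rule. Genes named for a family, an arrangement, or as exceptions were chosen after their values were seen. The members, lists, and tests were chosen with earlier results of these data known. Rules for functional classes and tissue markers gave no gene, as no identifier was matched. Alternatives varied the FPKM limit, the number of members, the pseudocount, the filter, the scaling, the peak limits, and the libraries used.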

Additional observations from a re-analysis of the deposited data

How the results depend on the processing

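Depth is unknown, so low polysome FPKM of the shortest entries has no counting limit, and each call rests on 2 libraries of a kind. Leaving out 1 library in turn gave 41 to 46 higher and 40 to 41 lower calls among members, with 39 to 40 of 71 to 88 bp lower and 41 to 46 of 135 to 408 bp higher, and a lone library was then assumed to vary like the others. With no filter on low values all 4 counts were 0 by limma, with 4 calls among 45578 entries, of which 13163 were 0 in every library; at an unadjusted P under 0.05, 46 members were higher and 43 lower. With entries above 0 in all 4 libraries, a setting chosen after seeing the data, 47 were higher and 41 lower. Counting each family once, also chosen afterwards, left 24 lower calls, 23 of them of 71 to 88 bp. With ENSRNA entries left out, higher calls were 31, all of 135 to 408 bp, and lower calls 45. The fold change reversed in 10 members, 1 of them called before, among which the named genes Zm00001d026160 and Zm00001d035440 were at -0.16 and -0.49. Same-numbered polysome and mRNA libraries did not deviate together (correlation 0.016), which does not show whether they came from the same plants. A fit with a replicate block gave 45 higher and 41 lower calls.

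The median ratio of all members, 1.38, lay between those of the 2 groups of members. It was 1.42 and 1.22 in replicate 1 and 2 alone, 0.869 with ENSRNA entries left out, 1.60 with libraries centred on their median, 0.258 and 1.99 for FPKM limits of 20 and 100, 0.0251 and 2.19 for the 50 and 200 shortest, 1.85 with families counted once, and 2.68 when chosen on polysome FPKM. The spread (interquartile range of the log2 ratio, 6.71) was 6.68 and 6.67 in replicate 1 and 2 alone, 6.11 with a pseudocount of 1, 6.84 and 4.79 for FPKM limits of 20 and 100, 4.31 and 2.01 for the 50 and 200 shortest, 4.24 with families counted once, and 0.680 when chosen on polysome FPKM. In longer genes the median ratio was 1.51 and 1.59 in replicate 1 and 2 alone, 0.963 with ENSRNA entries left out, 1.79 with libraries centred, 1.37 and 1.65 for limits of 20 and 100, 1.62 and 1.44 beside the 50 and 200 shortest, and 2.61 when chosen on polysome FPKM. For members of at most 88 bp it was 0.0120 with ENSRNA entries left out, 0.0241 with a pseudocount of 1, 0.0244 and 0.00934 for limits of 20 and 100, 0.0251 with families counted once, and 0.133 when chosen on polysome FPKM. For those of at least 135 bp it was 1.64 with ENSRNA entries left out, 3.07 with libraries centred, 2.22 for a limit of 20, and 1.77 in the 50 shortest. In each of these settings that gave all 3 medians, members of at most 88 bp were below the longer genes, and those of at least 135 bp above them.

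Longer genes with an m6A peak numbered 188 when both replicates had to reach a q of 1e-05, and 1274 and 74 for FPKM limits of 20 and 100. Members with a peak numbered 1 for the limit of 20 and 1 for the 200 shortest. No median m6A level of members could be given, as no member had a peak. Members with a neighbour numbered 16 within 500 bp, 58 within 5 kb, and 52 within 1 kb for the 200 shortest. The cause was not tested for any of these changes.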

Other observations

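Members of 71 to 88 bp had lower mRNA FPKM in replicate 2 in 6 entries and higher in 35, and this division, seen in the data, followed the ratio. The 6 entries were Zm00001d011381, Zm00001d011385, Zm00001d018164, Zm00001d022029, and Zm00001d029951, all of 74 bp, and Zm00001d018168 of 88 bp. Their ratios were 0.157 to 0.667, against 0.00304 to 0.144 in the 35 others, so the 2 ranges did not overlap. In 3 of the 6, the nearest entry lay 135 to 137 bp away on the same strand and spanned 72 or 74 bp. The ratio shares the mRNA values that made the division, and no test was made.

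When genes were instead chosen by an FPKM of at least 50 in both polysome libraries, the 100 shortest shared 56 with the members, and 7 spanned at most 88 bp. Of these 7, 5 were members, with ratios of 0.120 to 0.667. The other two were Zm00001d025029 (73 bp), with 152 and 167 FPKM in polysome RNA, against 67.0 and 46.8 FPKM in mRNA, and Zm00001d049317 (71 bp), with 99.5 and 90.6 FPKM in polysome RNA, against 54.6 and 43.7 FPKM in mRNA. Both missed the limit of 50 FPKM in mRNA replicate 2 alone, and both had more polysome than mRNA FPKM, unlike every member of their size. They were chosen on polysome FPKM and the members on mRNA FPKM, so this contrast is in part set by the choice. Zm00001d018165 (74 bp), 137 bp from the member Zm00001d018164, missed the limit with 49.8 and 49.5 FPKM in mRNA, and had 13.8 and 17.0 FPKM in polysome RNA.

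ENSRNA entries of the same sizes had low median polysome to mRNA ratios in both span classes. With an mRNA FPKM of at least 50 in both libraries, 8 ENSRNA entries of at most 88 bp had a median ratio of 0.0908, against 0.0191 in the 41 members of that size. The 53 of 135 to 408 bp had 0.201 (quartiles of 0.0438 and 0.827), against 2.61 in the 59 members of that size. Their median was 138 FPKM in polysome RNA and 301 FPKM in mRNA, against 222 and 107 FPKM in those 59 members.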
